A study of Nicotiana benthamiana with 6 samples.

Results

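The abscisic acid (ABA) module of *Nicotiana benthamiana* comprised the unigenes annotated as ABA synthesis or breakdown enzymes, ABA receptors, protein phosphatases 2C (PP2C), SnRK2 kinases, ABI5-type transcription factors and ninja-family repressors. A unigene was taken as a member when its best match in the NCBI non-redundant protein database (NR) came from *Nicotiana* or *Solanum* and its UniProt match carried one of those protein names. This gave 220 of the 167935 assembled unigenes. The name "protein phosphatase 2C" takes in the whole phosphatase family, so the members were split into 90 core members, in which only the clade A phosphatases of the ABA pathway were kept, and 130 PP2C unigenes outside clade A.

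The leaves were agroinfiltrated with *Agrobacterium tumefaciens* LBA4404 at an OD600 of 1.0. The overexpression (OE) group received pCAMBIA2200::MaWRKY45, in which the banana transcription factor gene *MaWRKY45* stands behind the CaMV35S promoter, and the mock group received the empty pCAMBIA2200 vector. All plants were of wild-type genotype and 5 weeks old, and leaves were harvested 3 days after infiltration. Each group had 3 libraries, and each library was made from the pooled RNA of 3 plants, so the spread among libraries is that among pools. Both groups carried *Agrobacterium*, and leaves without infiltration are not analysed here.

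In *Arabidopsis*, ABA is made from plastid xanthophylls through 9-cis-epoxycarotenoid dioxygenase (NCED), which opens the path to xanthoxin, and is inactivated by the CYP707A cytochromes P450, the ABA 8'-hydroxylases. Bound to ABA, receptors of the PYR/PYL family hold clade A PP2C inactive, which releases the subclass III SnRK2 kinases to phosphorylate ABF and ABI5 bZIP factors and guard cell channels. The genes of the clade A phosphatases and of the AFP proteins, which bind ABI5 and restrain it, are themselves induced by ABA in that species, and the hormone is known in leaves for closing stomata and for the response to drought.

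The libraries held 12031310 to 14285138 read counts. The 3 unigenes that matched a banana WRKY protein summed to 3143, 4529 and 3617 counts in OE libraries 1 to 3, against 1617, 782 and 1455 counts in mock libraries 1 to 3. Nearly all of these counts fell on 1 unigene that also matched cauliflower mosaic virus and cloning vector sequence, so insert and vector transcripts cannot be told apart in it. Leaf mesophyll markers (40 unigenes of Rubisco small subunit, Rubisco activase and chlorophyll a-b binding proteins) summed to 7254 to 12214 FPKM in OE and 9854 to 31289 FPKM in mock. Guard cell markers (6 unigenes named *SLAC1*, *KAT1* or *FAMA* in UniProt) summed to 21.6 to 37 FPKM in OE and 36.5 to 43.5 FPKM in mock. None of either list was at 0 in all libraries. Unigenes with a yeast match took 0.00339% to 0.0111% of counts in OE and 0.0687% to 0.104% in mock. Unigenes with an *Escherichia coli* match ran the other way, at 0.0202% to 0.0287% in OE and 0.00174% to 0.00316% in mock, and the part of either in the results was not tested.

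Members were compared between the groups with edgeR's quasi-likelihood test, and a unigene was called when its Benjamini–Hochberg adjusted p was under 0.05 and its fold change at least 2. Values between groups are given as read counts scaled to the TMM-adjusted library size (TMM CPM), and levels compared between unigenes as FPKM, which corrects for length. The expression filter kept 149 members. The other 71 were mostly short or nearly uncounted, with a median length of 385 bases against 1658 bases for those tested, and 2 of them had no count. Of the members tested, 18 were called, 7 higher and 11 lower in OE, which is 12.1%. Over all 37201 unigenes tested, 4.59% were called, 1.92% higher and 2.67% lower. The median log2 fold change of the members was -0.08, beside -0.01 for all unigenes tested.

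In the core, phosphatases that repress the pathway were among the unigenes lower in OE and receptors among those higher. Of 58 core members tested, 12 were called, 3 higher and 9 lower, which is 20.7%. The 9 that fell were 5 clade A phosphatases, *ABI5*, 2 AFP unigenes and 1 *NCED* unigene. The 3 that rose were 2 receptors and 1 SnRK2 kinase outside subclass III. Among the 9, *PP2C8* c81059_g1_i3, *ABI5* c97101_g1_i5 and the AFP unigene c97639_g2_i2 passed the expression filter only through their mock libraries. The SnRK2 kinase passed it only through its OE libraries. The filter favoured the directions of these members, which are no support for the pattern. Counts called by role below stand beside the 4.59% called over all unigenes tested. Libraries of the groups did not overlap in 24 of the tested members on the higher side and 33 on the lower side, where all tested unigenes gave 11.3% and 11.5%. In the core these counts were 7 and 17. The median log2 fold change of the core members tested was -0.08.

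**Figure D1:**
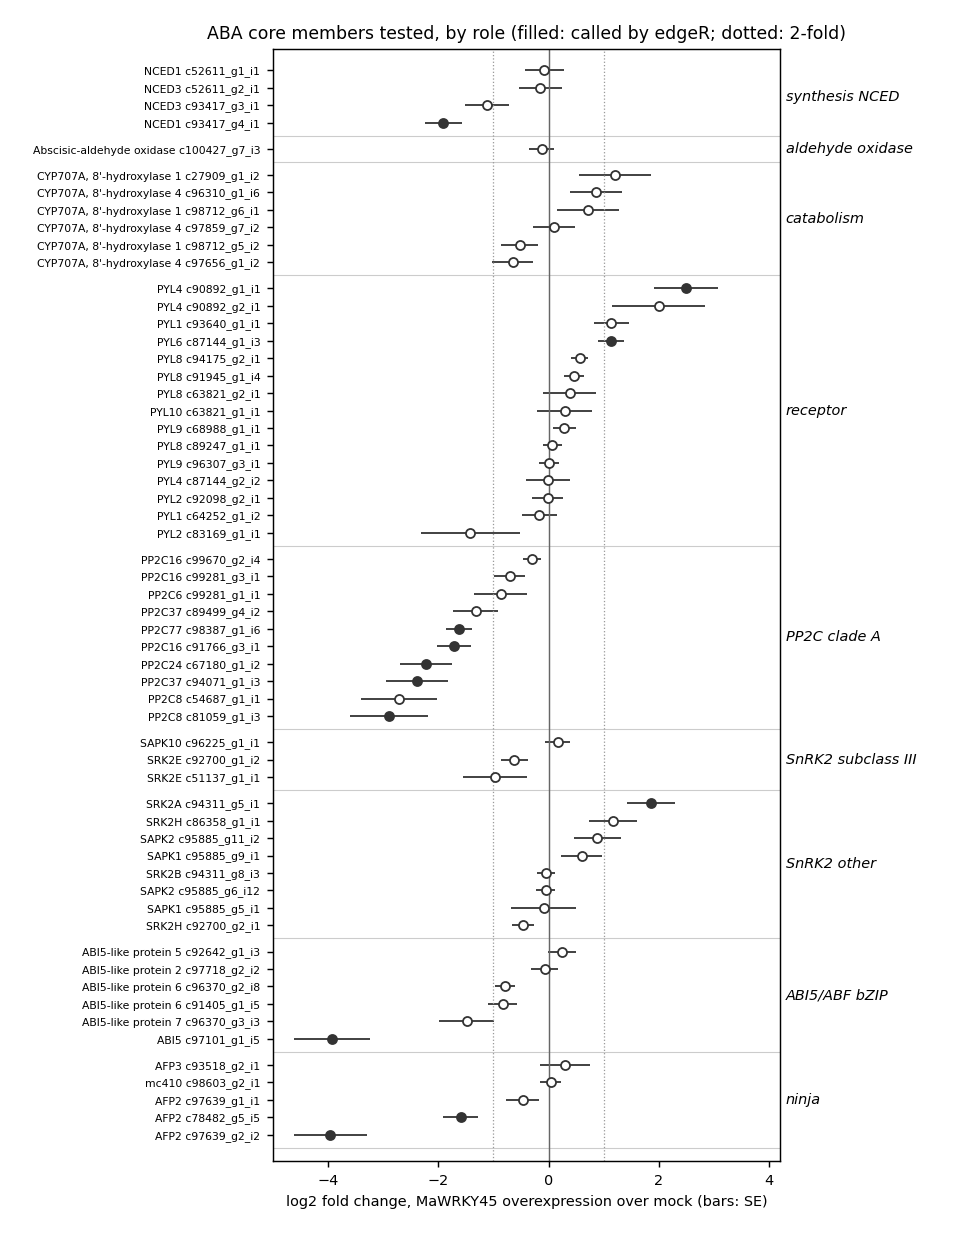
Log2 fold change of OE over mock for the 58 tested core members, grouped by role, with bars of 1 SE and filled points for those called. All 10 clade A PP2C unigenes tested lie below 0, with a median of -1.67, whereas 11 of the 15 receptors lie above it.

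Of the 6 *NCED* unigenes, 4 were tested and 1 was called. Its UniProt match is the bean NCED1 (c93417_g4_i1), and it had 3.41, 2.34 and 4.94 TMM CPM in OE libraries 1 to 3, against 15.9, 8.49 and 15.8 TMM CPM in mock libraries 1 to 3. Every OE library lay below every mock library (log2 fold change -1.91 ± 0.34 (SE), edgeR adjusted p = 0.0126). A second unigene of the same assembly component, c93417_g3_i1, also had NCED1 as its NR match and was the most counted of the role. It had 7.45, 3.95 and 15.1 TMM CPM in OE and 24.3, 16.8 and 16.4 TMM CPM in mock, and although its groups did not overlap it was not called (log2 fold change -1.12 ± 0.40 (SE), edgeR adjusted p = 0.158). The other pair tested, c52611_g1_i1 and c52611_g2_i1, had log2 fold changes of -0.078 ± 0.36 and -0.15 ± 0.38. The 2 *NCED* unigenes that the filter removed held at most 5 counts in any library, and the NR match of one of them, c97820_g5_i1, was a carotenoid 9,10-cleavage dioxygenase and not an NCED.

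The step after xanthoxin in the rule is abscisic-aldehyde oxidase, which makes ABA from its aldehyde. The tested unigene c100427_g7_i3 had 36.05, 41.1 and 36.1 TMM CPM in OE and 27.9, 47.6 and 47.95 TMM CPM in mock, with overlapping groups (log2 fold change -0.12 ± 0.22 (SE), edgeR adjusted p = 0.833). Its NR match was an indole-3-acetaldehyde oxidase-like protein of the same enzyme family, so its substrate is not settled by the annotation.

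Of the 11 ABA 8'-hydroxylase unigenes, which carry the breakdown step, 6 were tested and none was called. The most counted, c96310_g1_i6, had 119.9, 137 and 31.9 TMM CPM in OE libraries 1 to 3, against 29.1, 68.2 and 62.5 TMM CPM in mock libraries 1 to 3. OE libraries 1 and 2 stood above all mock libraries while OE library 3 was at the level of mock library 1 (log2 fold change 0.85 ± 0.47 (SE), edgeR adjusted p = 0.381). Without OE library 3 it was called higher (log2 fold change 1.28, edgeR adjusted p = 0.0357). In that fit calls over all unigenes also rose, to 2756 against 1706. The log2 fold changes of the other 5 ran from -0.65 to 1.21, and their adjusted p-values from edgeR were 0.373 or more. The SE of these log2 fold changes was 0.33 to 0.66. Differences larger than their SE, such as that of c96310_g1_i6, also went uncalled, so the absence of a call does not show the absence of a change.

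Among the core roles, the receptors had the highest summed FPKM in every library. Of 19 unigenes, 15 were tested, 2 were called higher in OE and none lower, 11 had a positive log2 fold change, and the median was 0.29. The groups did not overlap in 6 of them, all higher in OE, where all tested unigenes gave 11.3% on that side. Over all tested unigenes 4.59% were called. The most counted receptor, *PYL8* c89247_g1_i1, had 159, 127 and 151 TMM CPM in OE and 127, 150.4 and 139 TMM CPM in mock, and the groups overlapped (log2 fold change 0.068 ± 0.17 (SE), edgeR adjusted p = 0.888).

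The first receptor that rose was c87144_g1_i3, annotated as *PYL6* in UniProt and as PYL4-like in NR. It had 75.3, 70.9 and 50.7 TMM CPM in OE libraries 1 to 3, against 21.5, 33.7 and 34.7 TMM CPM in mock libraries 1 to 3, and the groups were apart (log2 fold change 1.13 ± 0.23 (SE), edgeR adjusted p = 0.0223). The second, *PYL4* c90892_g1_i1, had 46.9, 44.96 and 17.9 TMM CPM in OE libraries 1 to 3, against 2.04, 13.03 and 4.31 TMM CPM in mock libraries 1 to 3. Its OE library 3 was well below the other OE libraries, and its mock library 2 well above the other mock libraries, without overlap (log2 fold change 2.50 ± 0.58 (SE), edgeR adjusted p = 0.0367). Neither receptor stayed called without OE library 1, OE library 2 or mock library 1. The same pattern with wider spread was seen in its component neighbour c90892_g2_i1, also *PYL4*, at 68.3, 73.01 and 25.3 TMM CPM in OE and 1.24, 34.4 and 5.93 TMM CPM in mock. There mock library 2 lay above OE library 3, and the unigene was not called (log2 fold change 2.00 ± 0.84 (SE), edgeR adjusted p = 0.231). A further *PYL4* unigene, c86979_g1_i1, singled out after its values were seen, did not pass the filter. It held 23, 34 and 5 counts in OE and 0, 2 and 1 counts in mock, a ratio of 19.9 after scaling to library size, with a 95% exact interval of 6.48 to 98.9 for counting error only.

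Other receptors lay closer to the threshold or to no change. *PYL1* c93640_g1_i1 had 107, 105 and 62.1 TMM CPM in OE and 25.9, 60.3 and 38.2 TMM CPM in mock, without overlap but not called (log2 fold change 1.14 ± 0.31 (SE), edgeR adjusted p = 0.0673). *PYL8* c94175_g2_i1 varied little within groups, at 88.7, 89.9 and 84.4 TMM CPM in OE and 59.5, 58.3 and 59.6 TMM CPM in mock (log2 fold change 0.57 ± 0.15 (SE), edgeR adjusted p = 0.0638). *PYL9* c96307_g3_i1 had a log2 fold change of 0.0059 ± 0.18. The lowest value, -1.42 ± 0.90, belonged to *PYL2* c83169_g1_i1, which was at or under 1.39 TMM CPM in every library.

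When receptor unigenes were grouped by the receptor named in their NR match, a grouping made after the values were seen and therefore not tested, the summed levels were higher in OE for 3 of 5 groups. The 6 PYL4-like unigenes summed to 165.6, 171.5 and 88.4 FPKM in OE, against 21.7, 62.5 and 38.3 FPKM in mock. The 2 PYR1-like unigenes summed to 88.7, 87.7 and 55.3 FPKM in OE, against 23.1, 48.3 and 32.8 FPKM in mock. The 8 PYL8-like and PYL9-like unigenes, which made up most of the receptor level in mock, summed to 356, 311 and 356 FPKM in OE, against 272, 289 and 273 FPKM in mock. The 2 PYL2-like unigenes summed to 6.93, 3.78 and 4.6 FPKM in OE, against 6.38, 4.59 and 5.9 FPKM in mock, and the 1 PYL12-like unigene had 0.95, 0 and 0 FPKM in OE and 2.48, 0 and 0 FPKM in mock. Both of these overlapped. None of the 3 larger sums overlapped between the groups. The OE mean was 3.47 times the mock mean for the PYL4-like unigenes, 2.22 times for the PYR1-like and 1.23 times for the PYL8-like and PYL9-like. In *Arabidopsis*, PYL4 and the PYL8 and PYL9 receptors act as monomers and PYR1 as a dimer that ABA opens.

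The clade A phosphatases, the co-receptors that ABA-bound receptors inhibit, lay on one side. Of 12 unigenes, 10 were tested, all 10 had a negative log2 fold change with a median of -1.67, 5 were called lower and none higher, and in 8 the groups did not overlap. Over all unigenes tested, 4.59% were called and 11.5% lay apart on the lower side. The 2 *PP2C8* unigenes and c99281_g1_i1 passed the expression filter only through their mock libraries, which favours the lower side. All 10 stayed negative under each of the other scalings, filters and tests, and with each library left out. The number called was 3 with limma-voom and 3 with scaling by library size alone, and *PP2C24*, the called *PP2C37* unigene and the called *PP2C8* unigene were each lost under at least 1 of these. Tested against a fold change of 2 (glmTreat), the 5 had adjusted p-values of 0.151 to 0.242 and were not called.

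*PP2C16*, whose *Arabidopsis* counterpart is *HAB1*, was the most counted of them. Unigene c91766_g3_i1 had 43.6, 36.8 and 81.7 TMM CPM in OE libraries 1 to 3, against 236, 142 and 156 TMM CPM in mock libraries 1 to 3, so every OE library was below every mock library (log2 fold change -1.72 ± 0.32 (SE), edgeR adjusted p = 0.0137). *PP2C77* c98387_g1_i6, matched to the *Arabidopsis* *ABI2* phosphatase, had 33.3, 34.2 and 52.00 TMM CPM in OE libraries 1 to 3, against 156, 104 and 109 TMM CPM in mock libraries 1 to 3. It had the smallest SE of the 5 phosphatases called (log2 fold change -1.63 ± 0.24 (SE), edgeR adjusted p = 0.00534), and it was called with any 1 library left out.

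The *PP2C37* unigenes matched *PP2CA*, also named *AHG3*, a phosphatase with a strong part in seeds and guard cells of *Arabidopsis*. c94071_g1_i3 had 3.01, 4.47 and 15.5 TMM CPM in OE libraries 1 to 3, against 64.5, 25.9 and 30.3 TMM CPM in mock libraries 1 to 3, with OE library 3 at several times the other OE libraries but still below mock (log2 fold change -2.39 ± 0.56 (SE), edgeR adjusted p = 0.0381). c89499_g4_i2 had 16.8, 17.6 and 52.7 TMM CPM in OE and 94.3, 60.1 and 63.03 TMM CPM in mock, again with OE library 3 near the mock range, and it was not called (log2 fold change -1.32 ± 0.41 (SE), edgeR adjusted p = 0.0985). *PP2C24*, of the *HAI* phosphatases that are highly ABA-induced in *Arabidopsis*, had 4.52, 3.81 and 8.26 TMM CPM in OE and 42.9, 10.8 and 24.1 TMM CPM in mock for c67180_g1_i2 (log2 fold change -2.23 ± 0.47 (SE), edgeR adjusted p = 0.0242). These groups also lay apart, and mock library 2 was the lowest of the mock libraries.

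A pair of scarce unigenes matched the rice *PP2C8*. c81059_g1_i3 had 0.396, 0.22 and 1.03 TMM CPM in OE and 7.81, 1.34 and 3.32 TMM CPM in mock, without overlap, and fell in OE (log2 fold change -2.90 ± 0.71 (SE), edgeR adjusted p = 0.0439). c54687_g1_i1 had 0, 0.439 and 0.443 TMM CPM in OE and 2.99, 1.42 and 1.62 TMM CPM in mock and lay just outside the threshold (log2 fold change -2.71 ± 0.69 (SE), edgeR adjusted p = 0.0501). The smallest difference of the clade was in a second *PP2C16* unigene, c99670_g2_i4, at 47.7, 42.8 and 54.4 TMM CPM in OE and 57.6, 57.9 and 63.1 TMM CPM in mock (log2 fold change -0.30 ± 0.17 (SE), edgeR adjusted p = 0.381). Its NR match was PP2C53, so the 3 *PP2C16* unigenes need not be copies of 1 gene. The 2 *PP2C75* unigenes, named for *AHG1*, a phosphatase of seeds, were not tested and had at most 5 counts in a library.

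**Figure D2:**
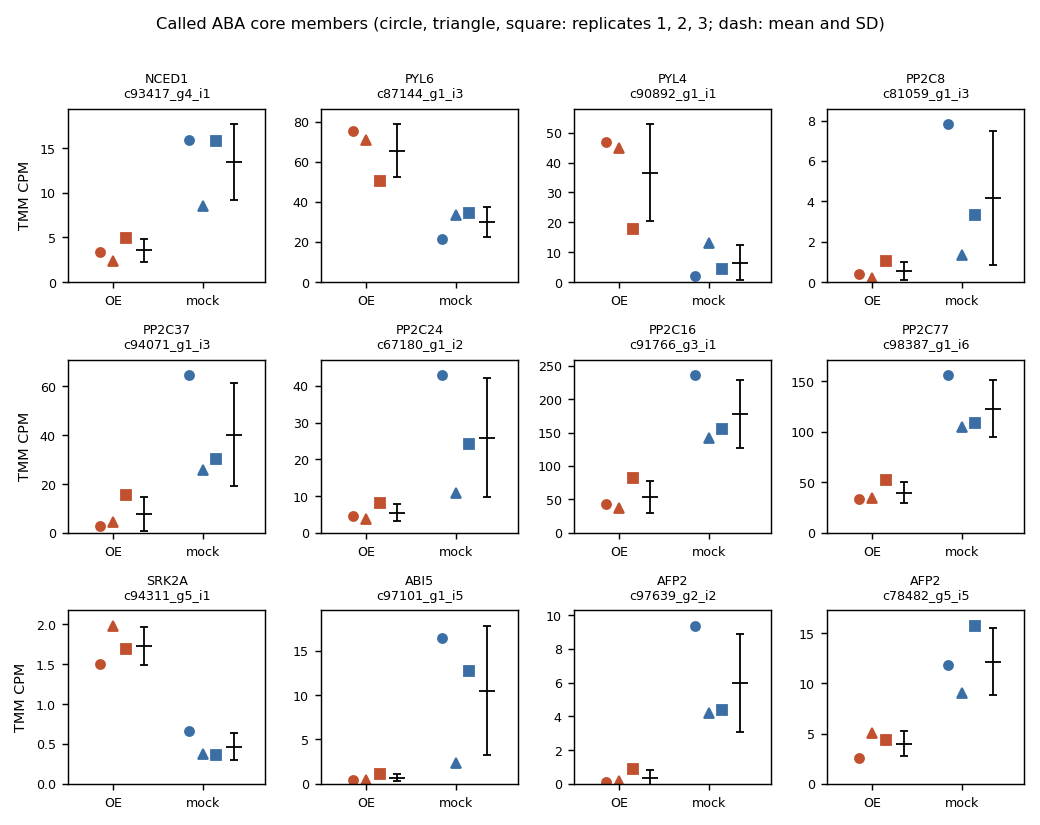
TMM CPM of the 12 called core members in each library, with the OE libraries on the left of each panel and the mock libraries on the right, and the mean and SD beside them. In the phosphatase, *ABI5* and AFP panels all OE points lie below all mock points, and in the *PYL6*, *PYL4* and *SRK2A* panels all lie above.

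Set side by side per length, the receptors were higher and the clade A phosphatases lower in every OE library than in any mock library. The 19 receptor unigenes summed to 618, 574 and 505 FPKM in OE libraries 1 to 3, against 326, 405 and 350 FPKM in mock libraries 1 to 3. The 12 clade A unigenes summed to 70.98, 69.9 and 139.9 FPKM in OE, against 292, 182 and 205 FPKM in mock. The ratio of receptor to phosphatase FPKM was 8.71, 8.21 and 3.61 in OE, against 1.12, 2.22 and 1.71 in mock. OE library 3 had the lowest ratio of the OE group and mock library 2 the highest of the mock group. The ratio was built after its parts had been seen and is a description of transcript levels, not of protein.

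**Figure D3:**
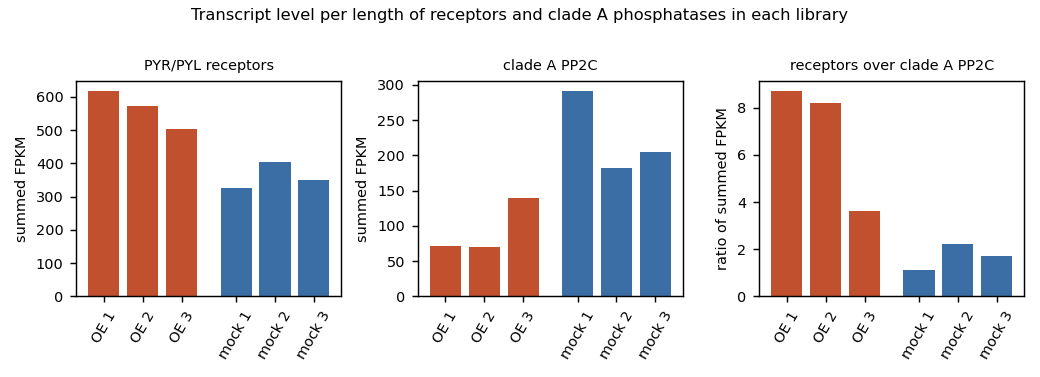
Summed FPKM of the receptor unigenes, summed FPKM of the clade A PP2C unigenes and their ratio, 1 bar for each library with OE on the left and mock on the right. Receptor sums reach 505 to 618 FPKM in OE and 326 to 405 FPKM in mock, and the ratio is 3.61 or more in every OE library and 2.22 or less in every mock library.

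The SnRK2 kinases, the next step, showed few differences. Of 6 subclass III unigenes, the class activated by ABA, 3 were tested and none was called. The most counted, *SAPK10* c96225_g1_i1, had 124, 116 and 99.6 TMM CPM in OE and 85.5, 136 and 80.2 TMM CPM in mock (log2 fold change 0.17 ± 0.22 (SE), edgeR adjusted p = 0.764). *SRK2E* c92700_g1_i2, the *OST1* kinase that opens guard cell anion channels in *Arabidopsis*, had 30.98, 24.02 and 43.7 TMM CPM in OE and 50.5, 58.9 and 41.9 TMM CPM in mock. Its mock libraries were mostly higher, but OE library 3 overlapped them (log2 fold change -0.62 ± 0.24 (SE), edgeR adjusted p = 0.185).

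Of 15 SnRK2 unigenes in the other subclasses, 8 were tested and 1 was called. *SRK2A* c94311_g5_i1 had 1.5, 1.98 and 1.7 TMM CPM in OE and 0.657, 0.372 and 0.359 TMM CPM in mock, without overlap (log2 fold change 1.86 ± 0.43 (SE), edgeR adjusted p = 0.0364). Its kinase belongs to the subclass that osmotic stress activates without ABA in *Arabidopsis*. The unigene is a fragment of 638 bases with few counts, and it was called in none of the fits with 1 library left out. The most counted of the 8, *SAPK2* c95885_g6_i12, had 66.6, 53.3 and 67.8 TMM CPM in OE and 65.9, 62.9 and 65.99 TMM CPM in mock (log2 fold change -0.053 ± 0.17 (SE), edgeR adjusted p = 0.912). The better expressed *SRK2B* c94311_g8_i3, of the same component, had 56.1, 46.6 and 58.5 TMM CPM in OE and 56.6, 55.1 and 55.3 TMM CPM in mock (log2 fold change -0.051 ± 0.16).

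Among the bZIP factors, 6 of 13 unigenes were tested and 1 was called. *ABI5* c97101_g1_i5, a factor best known from seeds and seedling arrest, had 0.475, 0.439 and 1.11 TMM CPM in OE libraries 1 to 3, against 16.4, 2.38 and 12.7 TMM CPM in mock libraries 1 to 3. The OE libraries were all near 1 TMM CPM or below, and mock library 2 was far below the other mock libraries (log2 fold change -3.94 ± 0.69 (SE), edgeR adjusted p = 0.011). With limma-voom it was not called (adjusted p = 0.087), and neither was it without OE library 1 or mock library 1. The study had named *ABI5* among its most repressed transcription factors. The ABF-type unigenes were better expressed. The ABI5-like protein 7 unigene c96370_g3_i3, the counterpart of *ABF4*, had 19.5, 13.5 and 56.8 TMM CPM in OE libraries 1 to 3, against 130.1, 53.3 and 67.2 TMM CPM in mock libraries 1 to 3. OE library 3 overlapped the mock group (log2 fold change -1.48 ± 0.50 (SE), edgeR adjusted p = 0.13).

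The ABI5-like protein 6 unigene c96370_g2_i8, the counterpart of *ABF3*, had 31.9, 33.7 and 42.9 TMM CPM in OE and 64.2, 59.2 and 64.5 TMM CPM in mock. Its groups were apart and its adjusted p passed, but the change was under 2-fold, so it was not called (log2 fold change -0.79 ± 0.18 (SE), edgeR adjusted p = 0.0301). The second ABI5-like protein 6 unigene, c91405_g1_i5, had a log2 fold change of -0.83 ± 0.26 without overlap, and the ABI5-like protein 5 and 2 unigenes had 0.25 ± 0.26 and -0.072 ± 0.25.

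The ninja family comprises the AFP proteins, which bind ABI5 and promote its removal in *Arabidopsis*, and relatives that repress jasmonate responses. Of 6 unigenes, 5 were tested and 2 were called, both named AFP2 in UniProt and both lower in OE. The NR match of c97639_g2_i2 was AFP1-like. c78482_g5_i5 had 2.62, 5.05 and 4.35 TMM CPM in OE libraries 1 to 3, against 11.8, 9.01 and 15.7 TMM CPM in mock libraries 1 to 3, without overlap (log2 fold change -1.60 ± 0.31 (SE), edgeR adjusted p = 0.0175). c97639_g2_i2 had 0.0792, 0.146 and 0.885 TMM CPM in OE libraries 1 to 3, against 9.35, 4.17 and 4.4 TMM CPM in mock libraries 1 to 3, nearly absent from OE libraries 1 and 2 (log2 fold change -3.96 ± 0.66 (SE), edgeR adjusted p = 0.00884).

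The c97639_g2_i2 difference was smaller once unigenes with the same NR match were summed. c97639_g1_i1 has the same NR match and overlapping groups, at 8.64, 11.1 and 14.5 TMM CPM in OE and 23.3, 12.5 and 11.5 TMM CPM in mock (log2 fold change -0.47 ± 0.31). With the counts of both summed, a step added after the values were seen, the pair had 8.69, 11.2 and 15.3 TMM CPM in OE and 32.5, 16.6 and 15.9 TMM CPM in mock, and was no longer called (log2 fold change -0.89 ± 0.32 (SE), edgeR adjusted p = 0.152). The other 17 called members stayed called when unigenes were summed by NR match. The most counted ninja unigene, mc410 c98603_g2_i1, named for a tobacco protein, had 60.5, 59.6 and 46.7 TMM CPM in OE and 44.98, 56.5 and 61.05 TMM CPM in mock (log2 fold change 0.038 ± 0.19 (SE), edgeR adjusted p = 0.945).

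Of the 130 phosphatases outside clade A, 91 were tested. Of these, 6 were called (6.59%), 4 higher and 2 lower, and the median log2 fold change was -0.07, so their share was near the 4.59% of all unigenes. The largest differences were in scarce unigenes. *PP2C65* c95693_g2_i4 had 3.96, 11.2 and 6.34 TMM CPM in OE libraries 1 to 3, against 0.803, 0.67 and 0.718 TMM CPM in mock libraries 1 to 3 (log2 fold change 3.28 ± 0.44 (SE), edgeR adjusted p = 0.00388). *PP2C72* c83597_g1_i1 had 7.05, 3.66 and 8.41 TMM CPM in OE and 0.657, 0.819 and 0.539 TMM CPM in mock (log2 fold change 3.22 ± 0.41 (SE), edgeR adjusted p = 0.00317). In both, the lowest OE library was several times the highest mock library. Both passed the expression filter only through their OE libraries.

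*PP2C47* c94072_g2_i1 went the other way, at 0.713, 1.25 and 1.25 TMM CPM in OE and 6.06, 5.58 and 5.39 TMM CPM in mock (log2 fold change -2.39 ± 0.33 (SE), edgeR adjusted p = 0.00411). These 3 phosphatases were called with any 1 library left out. *PP2C5* c96244_g1_i1 had 23.1, 21.8 and 21.8 TMM CPM in OE and 5.55, 12.1 and 6.11 TMM CPM in mock (log2 fold change 1.48 ± 0.29 (SE), edgeR adjusted p = 0.0178), and *PP2C28* c94932_g1_i3 had 30.4, 32.6 and 21.5 TMM CPM in OE and 13.7, 17.4 and 10.5 TMM CPM in mock (log2 fold change 1.02 ± 0.24 (SE), edgeR adjusted p = 0.039). Both were higher in OE without overlap. Neither stayed called with glmTreat, or without OE library 1, OE library 2, mock library 1 or mock library 3. *PP2C74* c65928_g1_i1 had 38.4, 39.7 and 37.02 TMM CPM in OE and 109.7, 46.4 and 148 TMM CPM in mock (log2 fold change -1.40 ± 0.34 (SE), edgeR adjusted p = 0.0434), where OE varied little and mock library 2 lay near OE. This call was lost with limma-voom (adjusted p = 0.0854), glmTreat, library size alone, a replicate block and in 5 of the 6 fits with 1 library left out. The most counted phosphatase outside clade A, *PP2C10* c96001_g2_i3, had 232, 266 and 221 TMM CPM in OE and 176, 146 and 204 TMM CPM in mock, apart but not called (log2 fold change 0.45 ± 0.19 (SE), edgeR adjusted p = 0.233). The closest to the threshold of those not called was *PP2C58* c147788_g1_i1, at 132, 156 and 139.9 TMM CPM in OE and 78.6, 61.7 and 101 TMM CPM in mock, with a change under 2-fold (log2 fold change 0.83 ± 0.21 (SE), edgeR adjusted p = 0.0467).

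Further steps of ABA synthesis, transport and control were read from a list of 81 unigenes outside the rule. Of 46 tested, 5 were called, which is 10.9%, all lower in OE, where all unigenes tested gave 4.59% called and 2.67% lower, and the median log2 fold change was 0.03. This list too was chosen with earlier results of these data known, so its share is a description and not a test. No unigene of the list carried the name of an enzyme that conjugates or releases ABA. Zeaxanthin epoxidase c97840_g7_i1, which makes the xanthophyll precursors of ABA, had 229, 163 and 272 TMM CPM in OE and 509, 647 and 401 TMM CPM in mock (log2 fold change -1.23 ± 0.25 (SE), edgeR adjusted p = 0.0227). Violaxanthin de-epoxidase c95406_g1_i1, which runs the opposite reaction in the xanthophyll cycle, had 26.7, 20.4 and 13.9 TMM CPM in OE and 46.7, 54.5 and 39.1 TMM CPM in mock (log2 fold change -1.20 ± 0.25 (SE), edgeR adjusted p = 0.0223). Each of these epoxidase and de-epoxidase unigenes was called in 3 of the 6 fits with 1 library left out. Both are chloroplast enzymes, and the leaf mesophyll markers moved with them, with 27 tested, 1 called higher and 5 lower and a median log2 fold change of -1.21. Their part in these or the core results was not tested, and fewer mesophyll cells and less RNA per cell cannot be told apart in leaf RNA.

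Xanthoxin dehydrogenase c84696_g1_i2, the *ABA2* step between xanthoxin and abscisic aldehyde, had 3.01, 4.03 and 4.13 TMM CPM in OE libraries 1 to 3, against 16.1, 13.6 and 13.4 TMM CPM in mock libraries 1 to 3. It had the smallest SE of the 5 (log2 fold change -1.94 ± 0.24 (SE), edgeR adjusted p = 0.00247). The other tested unigenes of that name, c84459_g2_i1 and c98933_g3_i1, had log2 fold changes of 0.18 ± 0.60 and -0.46 ± 0.55. Both were scarce, at or under 2.83 TMM CPM in every library. The NR match of c98933_g3_i1 was a fructosidase inhibitor-like protein and not a xanthoxin dehydrogenase. The ABA exporter gene *ABCG25* c97472_g3_i1 had 4.75, 2.49 and 4.65 TMM CPM in OE and 10.2, 8.94 and 9.97 TMM CPM in mock (log2 fold change -1.29 ± 0.29 (SE), edgeR adjusted p = 0.0306). *ABCG25* was called in 2 of the 6 fits with 1 library left out and not with library size alone (edgeR adjusted p = 0.05055). Unigene c100578_g4_i1 had 4.2, 3.88 and 2.21 TMM CPM in OE and 27.1, 11.6 and 21.8 TMM CPM in mock (log2 fold change -2.55 ± 0.36 (SE), edgeR adjusted p = 0.00436). Groups did not overlap in any of the 3. Its UniProt match was *RHA2A*, a RING ubiquitin ligase that promotes ABA responses in *Arabidopsis*, but its NR match was another RING ligase. The other 4 tested unigenes of that name were not called. c54043_g1_i1, c78746_g1_i1 and c86432_g1_i1, with RHA2A as their NR match, had log2 fold changes of -0.053 ± 0.33, 0.035 ± 0.37 and 0.056 ± 0.50, and the RHA2B-like neighbour c100578_g5_i1 had 1.18 ± 0.38.

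Of 39 unigenes on a list of ABA-responsive gene and family names, 24 were tested, 1 was called higher and 4 lower (20.8%). All unigenes gave 4.59% called (1.92% higher, 2.67% lower), and the median log2 fold change of the list was 0.03. The Gene Ontology term for the response to ABA was attached to 16 of the 39. The list was chosen with earlier results of these data known, so its share is a description and not a test. The called targets that fell included 1 unigene each of the homeodomain-leucine zipper genes *ATHB-12* and *ATHB-7*, which are ABA-induced in *Arabidopsis*. The study had already named *HB12* and *HB7* among its most repressed transcription factors. *ATHB-12* c91874_g1_i1 had 1.58, 1.32 and 5.68 TMM CPM in OE libraries 1 to 3, against 54.2, 18.2 and 34.7 TMM CPM in mock libraries 1 to 3 (log2 fold change -3.63 ± 0.56 (SE), edgeR adjusted p = 0.00638). *ATHB-7* c87966_g1_i2 had 0.159, 0.22 and 0.516 TMM CPM in OE and 5.55, 0.819 and 1.8 TMM CPM in mock (log2 fold change -3.15 ± 0.77 (SE), edgeR adjusted p = 0.0438). In both, mock library 1 was the highest and mock library 2 the lowest of its group, the order also seen in *ABI5*. The called *ATHB-7* unigene passed the expression filter only through its mock libraries. The other tested *ATHB-7* unigenes were better expressed and not called, with log2 fold changes of 0.054 ± 0.28 for c91231_g2_i1 and 0.17 ± 0.31 for c98079_g2_i4. The c98079_g2_i4 and c87966_g1_i2 unigenes have the same NR match, and with their counts summed the difference was no longer called (log2 fold change -0.28 ± 0.32 (SE), edgeR adjusted p = 0.716). The other 9 called unigenes of these lists stayed called when summed in that way.

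The other 3 target unigenes called were of stress-protein families and carried no Gene Ontology term for the response to ABA. The late embryogenesis abundant protein 46 unigene c136888_g1_i1 had 0.238, 0.805 and 0.147 TMM CPM in OE and 10.7, 2.01 and 6.02 TMM CPM in mock (log2 fold change -3.93 ± 0.71 (SE), edgeR adjusted p = 0.013). It passed the expression filter only through its mock libraries, and the study had listed it, as LE25-like, among its strongest decreases. The late embryogenesis abundant protein At1g64065 unigene c81650_g1_i1 had 7.76, 5.42 and 10.8 TMM CPM in OE and 19.9, 20.9 and 24.3 TMM CPM in mock (log2 fold change -1.44 ± 0.26 (SE), edgeR adjusted p = 0.0124). Against these, an HVA22-like protein i unigene, c85942_g3_i3, of a family named for an ABA-induced barley gene, had 41.3, 82.97 and 69.2 TMM CPM in OE and 23.8, 15.4 and 22.00 TMM CPM in mock and rose (log2 fold change 1.66 ± 0.27 (SE), edgeR adjusted p = 0.00825). The groups were apart in all 3. The other tested unigenes of the last 2 names were not called, at -0.16 ± 0.25 and 0.11 ± 0.31 for c108223_g1_i1 and c26275_g1_i1 (At1g64065) and -0.30 ± 0.20 and 0.34 ± 0.29 for c97823_g7_i3 and c92951_g4_i2 (HVA22-like) on the log2 scale.

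**Figure D4:**
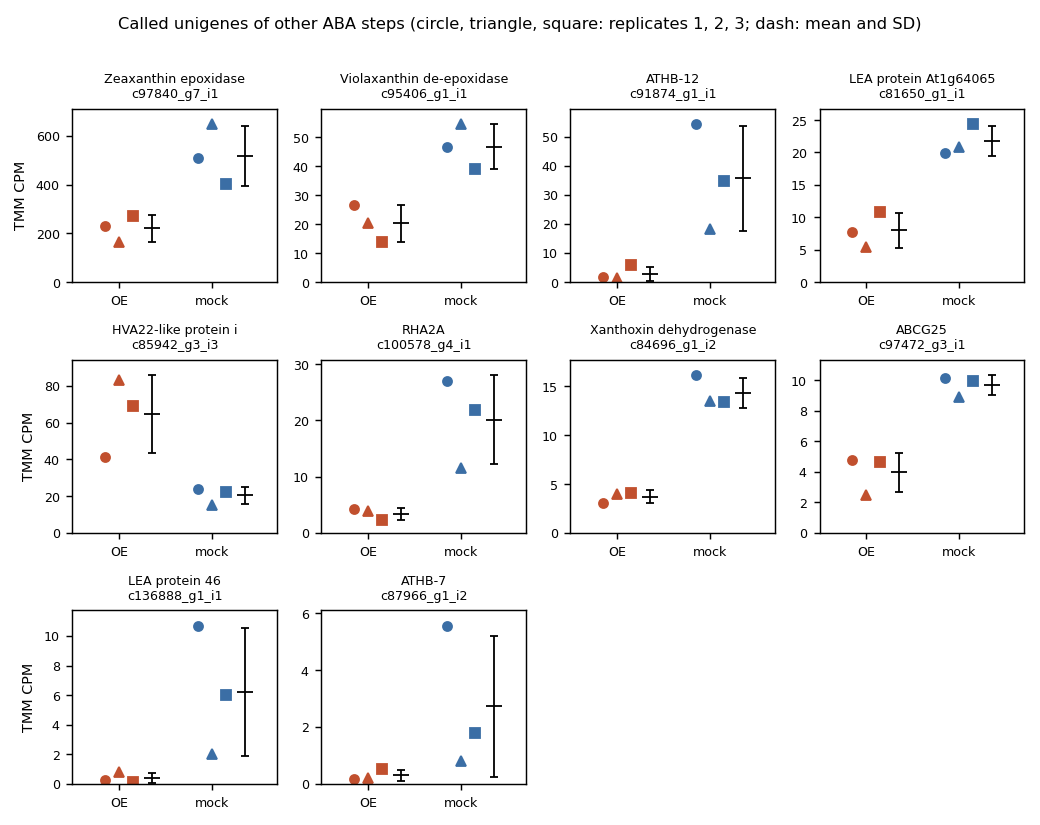
TMM CPM in each library of the 10 called unigenes from the other ABA steps and the list of target names, OE on the left and mock on the right, with the mean and SD. The OE points lie below the mock points in 9 panels, and above them only for the HVA22-like protein.

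Guard cells are the leaf cells in which the pathway is best known. Of 6 guard cell marker unigenes 5 were tested and none was called. These carried the names *SLAC1*, *KAT1* and *FAMA* only. *MYB60*, which the study reported among its down-regulated genes, was not among them. The absence of a call therefore holds for the 5 tested unigenes and not for guard cell genes at large. Both unigenes named *KAT1* took that name from UniProt, and the NR match of each was a KAT3-like potassium channel. The larger *KAT1* unigene, c99010_g2_i3, had a log2 fold change of -0.90 ± 0.20 (SE, edgeR adjusted p = 0.0277), under the 2-fold limit. The second *KAT1* unigene, c99010_g3_i1, had 0.71 ± 0.46 (SE, edgeR adjusted p = 0.466), and *SLAC1*, the anion channel that the OST1 kinase opens, had -0.63 ± 0.27 (SE, edgeR adjusted p = 0.242). The 3 *FAMA* unigenes, whose factor specifies guard cells, had log2 fold changes of 0.02 and 0.02 in the 2 that were tested. Outside the markers, the anion channel unigene *SLAH3* c98789_g2_i1, with a SLAH2-like NR match, was higher in OE without overlap. It was not called (log2 fold change 1.47 ± 0.57 (SE), edgeR adjusted p = 0.187). Summed guard cell marker level overlapped between the groups, and its part in the differences above was not tested.

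The members carried annotations that the rule did not use, but these come from the same sequences as the names and are no separate support. A PP2C domain was the first Pfam domain listed for 97 of the 130 phosphatases outside clade A and for all 12 clade A unigenes. A polyketide cyclase domain, the fold of the PYR/PYL pocket, was listed first for 16 of the 19 receptors. Against the names, it was a peroxidase domain for 1 receptor and PPR_long for 1 phosphatase outside clade A. The Gene Ontology term for the response to ABA was attached to 22 members, 21 of them in the core, including 12 of the 13 bZIP unigenes and 6 of the 12 clade A phosphatases but no receptor. *N. benthamiana* is an allotetraploid, and 68 members shared an NR match with another member, so single unigenes can be copies or pieces of 1 gene.

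The libraries within each group did not contribute evenly. Among the 9 core members that fell, OE library 3 was the highest OE library in 8, mock library 1 the highest mock library in 8 and mock library 2 the lowest in all 9. Without OE library 1, 2 or 3 the core calls numbered 2, 4 and 18, and without mock library 1, 2 or 3 they numbered 1, 16 and 6, against 12 with all libraries. For clade A alone the counts were 1, 1 and 7 without OE library 1, 2 or 3 and 1, 6 and 2 without mock library 1, 2 or 3, against 5. Calls over all unigenes moved too, between 669 and 2756 against 1706. The log2 fold changes of the 18 called members kept their sign throughout.

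**Figure D5:**
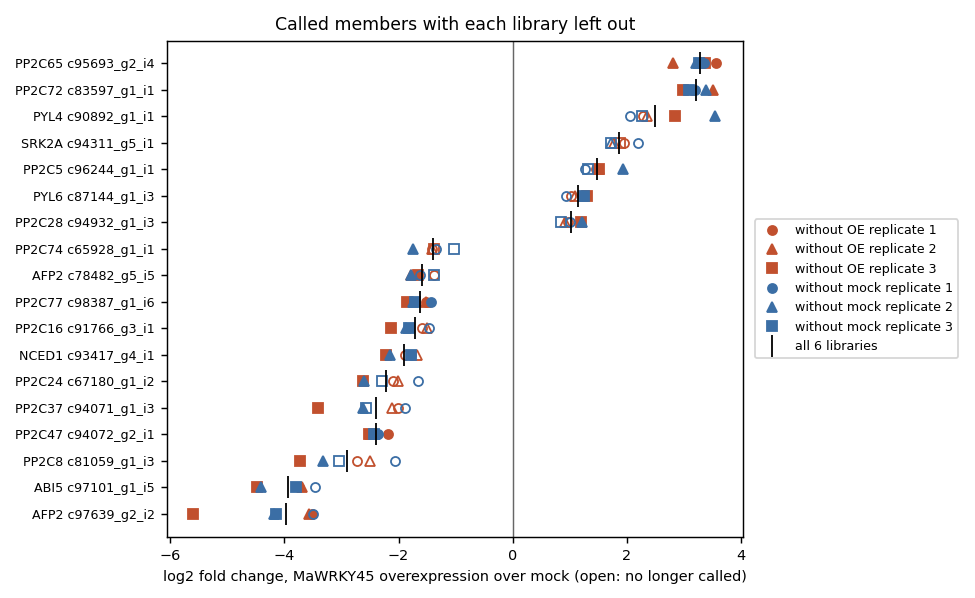
Log2 fold change of OE over mock for the 18 called members with all 6 libraries (bar) and with each library left out (points), open where the member was no longer called. No point crosses 0, and *ABI5*, for example, ranges from -4.49 to -3.46.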

How the data were processed

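RNA of the 6 leaf pools was sequenced from stranded mRNA libraries as paired reads. The authors trimmed reads with Trimmomatic, assembled them de novo with Trinity, removed redundancy with CD-HIT-EST, aligned reads with Bowtie2 and estimated abundance with RSEM, with no genome build. Whether counting used strand is not given in the sources used here. The deposited count table held whole read counts for each unigene and equalled the deposited RSEM expected counts in all 6 libraries. FPKM values were deposited by the authors and were used as levels per length. Deposited TPM values and other deposited columns, such as unigene length, entered no test.

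Counts were filtered with filterByExpr, scaled by TMM and tested with edgeR 4.0.16 (limma 3.58.1, R 4.3.3) over all unigenes, 3 OE against 3 mock libraries. DESeq2 1.42.0, limma-voom and other settings were alternatives. The SE is the log2 fold change divided by the root of F. The script was tested on simulated data. Members and lists were chosen with earlier results of these data known. Values were given by library for members called, for the most counted of each role and for the 3 closest to a call, and outside the rule for those called. Some further members, among them *PYL1*, *PYL4* and *PP2C37* unigenes not called, were named after their values were seen. p-values measure the spread between pools.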

Additional observations from a re-analysis of the deposited data

How the results depend on the processing

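With all 6 libraries there were 18 members called (7 higher, 11 lower), 12 core members, 5 other pathway unigenes and 5 targets. No log2 fold change of a called member changed sign under any alternative. limma-voom gave 7 members lower and 3 targets. A test against a fold change of 2 (glmTreat) gave 5 members, 2 higher and 3 lower, with 2 core members, 2 pathway unigenes and 1 target. Without the expression filter there were 11 members higher, 20 core members, 8 pathway unigenes and 9 targets. Over all unigenes the calls numbered 1706 in the main fit, 1360 with limma-voom, 382 with glmTreat, 4201 without the filter and 2562 with DESeq2. The number of members called rose and fell with these totals. With library size as the only scaling, medians on the log2 scale were 0.11 over all unigenes, 0.05 over the members and 0.05 over the core, so no direction is read from those medians. DESeq2 called 20 members, 16 of them shared, and lost *PYL4* c90892_g1_i1 (adjusted p = 0.0533) and *SRK2A* c94311_g5_i1 (adjusted p = 0.0892). Leaving out 1 library gave 4 to 23 members called, 2 to 10 higher and 2 to 14 lower, 1 to 18 core members, 2 to 7 pathway unigenes and 2 to 8 targets, with medians of -0.11 to -0.02 for the members and -0.16 to -0.01 for the core. Summed by NR match, 17 of 140 matches were called. Same-numbered libraries had correlations of deviations of -0.11, -0.13 and -0.09. The labels give only a replicate number, and these few values cannot show whether such libraries shared a batch. A replicate block gave 16 members and 11 core members, all shared. The 71 members that the filter removed had too few counts to be tested.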
